A study of Mus musculus with 14 samples.

Results

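The genes described here are 36 genes of the cell cycle and of DNA replication, taken by symbol from the 32830 genes of the deposited expression table. They comprise 14 replication genes, 19 mitosis genes and 3 D-type cyclins, and all 36 passed the filter on low values described with the tests. RNA-seq was done on cerebral cortex from SW mice on postnatal day 14. All mice carried Aldh1l1-GFP, a transgene in which the Aldh1l1 promoter, active in astrocytes, drives green fluorescent protein. The cortex was dissected into upper and deep layers. From each layer, sorted GFP-positive cells (astrocytes, 3 libraries), sorted GFP-negative cells (non-astrocytes, 2 libraries) and whole layer tissue (bulk tissue, 2 libraries) were sequenced, which gives 14 libraries in 6 groups. The sort also excluded dead cells by DAPI, after the tissue was dissociated with papain. The labels number the libraries of a group but do not say that they came from separate animals, so p-values measure the spread between these libraries, which may be technical.

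A dividing cell copies its DNA in S phase and parts the copies in mitosis. The MCM2 to MCM7 proteins form the ring-shaped helicase that is loaded on replication origins with the help of CDC6 and opens the DNA once CDC45 and the GINS complex join it, PCNA is the clamp that holds the polymerases on their template, and ribonucleotide reductase (RRM1, RRM2) and thymidylate synthase (TYMS) supply the nucleotides. Cyclin A2, cyclins B1 and B2 and CDK1 drive entry into mitosis, and kinases such as AURKA, AURKB, PLK1, BUB1 and BUB1B and the motor proteins KIF11 and CENPE build and guard the spindle. D-type cyclins bind CDK4 and CDK6 and act earlier, in G1, where they lead to phosphorylation of the retinoblastoma protein and release of E2F transcription factors. In the rodent cortex, astrocytes divide locally during the first postnatal weeks, and oligodendrocyte precursors go on dividing into adulthood.

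Promoter sequences are shown first because genes of mitosis and of replication are known for different control elements. RefSeq windows of 300 bases (250 before to 50 after a gene's start, GRCm38.p6) were found for 29 of the 36 genes. Mcm4, Gins2, Tpx2, Aurkb, Ccna2, Ccnd1 and Ccnd2 had no entry. Both strands were searched for CCAAT, the site of the factor NF-Y, for TTTGAA, a core of the cell cycle homology region that the DREAM complex binds, and for the E2F forms TTTGGCGC, TTTCCCGC, TTTCGCGC and TTTGCCGC. In 4 places within the windows, matches shared bases. Shown are the most highly expressed genes with a match in mitosis (Mki67, Top2a) and replication (Pcna), and Mcm6 and Cdk1, which were added after their values were seen because they hold more than 1 kind of match and differed strongly between fractions. Letters run 5′ to 3′ on the gene's strand, and capitals mark the matches.

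Mki67: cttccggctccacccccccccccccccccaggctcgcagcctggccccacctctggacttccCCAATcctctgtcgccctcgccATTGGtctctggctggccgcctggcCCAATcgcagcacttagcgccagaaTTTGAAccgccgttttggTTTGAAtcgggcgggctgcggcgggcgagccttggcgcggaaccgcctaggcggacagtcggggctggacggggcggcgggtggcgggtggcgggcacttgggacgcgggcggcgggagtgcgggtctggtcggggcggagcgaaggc
Top2a: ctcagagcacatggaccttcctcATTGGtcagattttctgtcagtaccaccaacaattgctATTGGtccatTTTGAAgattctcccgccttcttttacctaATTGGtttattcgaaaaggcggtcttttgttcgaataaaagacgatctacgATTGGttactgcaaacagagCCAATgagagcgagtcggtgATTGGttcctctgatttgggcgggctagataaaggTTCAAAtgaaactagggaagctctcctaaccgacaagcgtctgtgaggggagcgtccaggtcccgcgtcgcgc
Cdk1: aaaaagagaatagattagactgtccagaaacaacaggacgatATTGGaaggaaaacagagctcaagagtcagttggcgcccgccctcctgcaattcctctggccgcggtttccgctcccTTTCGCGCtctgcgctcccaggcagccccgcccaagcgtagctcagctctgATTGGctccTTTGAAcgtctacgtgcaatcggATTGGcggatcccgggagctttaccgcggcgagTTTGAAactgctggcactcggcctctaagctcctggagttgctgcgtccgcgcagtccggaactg
Mcm6: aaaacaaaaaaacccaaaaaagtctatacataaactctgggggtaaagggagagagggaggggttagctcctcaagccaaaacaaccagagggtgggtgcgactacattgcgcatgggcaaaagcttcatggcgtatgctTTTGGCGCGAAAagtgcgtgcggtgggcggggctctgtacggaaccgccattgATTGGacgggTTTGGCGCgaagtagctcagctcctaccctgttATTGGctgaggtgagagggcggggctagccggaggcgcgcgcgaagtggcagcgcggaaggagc
Pcna: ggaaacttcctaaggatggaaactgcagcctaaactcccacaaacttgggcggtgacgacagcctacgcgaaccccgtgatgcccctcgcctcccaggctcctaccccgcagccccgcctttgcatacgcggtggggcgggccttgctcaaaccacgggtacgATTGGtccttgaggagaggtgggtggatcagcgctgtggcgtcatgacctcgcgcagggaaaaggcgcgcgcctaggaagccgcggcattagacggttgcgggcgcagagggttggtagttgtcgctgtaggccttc

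These windows lie at chr7:135716330-135716629, chr11:99024140-99024439, chr10:69352863-69353162, chr1:128359656-128359955 and chr2:132253131-132253430, and all 5 genes are on the minus strand. Matches were counted by gene, and a gene with more than 1 window, as Mcm7 and Ccnd3 have, counted once if any window held the match. Of genes with a window, CCAAT was present in 14 of 16 mitosis genes (87.5%) and in 9 of 12 replication genes (75.0%), against 41.1% of all 27025 gene symbols with a window. TTTGAA was present in 11 of 16 mitosis genes (68.8%) but in 2 of 12 replication genes (16.7%, Cdc45 and Mcm2), against 20.2% of all symbols. An E2F form was present in 5 of 12 replication genes (41.7%: Cdc6, Mcm3, Mcm5, Mcm6 and Mcm7) and in 1 of 16 mitosis genes (6.25%, Cdk1), against 2.60% of all symbols. Ccnd3, the only D-type cyclin with a window, held CCAAT alone, at chr17:47593217-47593516, and no match at chr17:47504801-47505100. Birc5, Nusap1, Ccne1 and Tyms had a window with no match. A match describes letters in this window and is not a measured binding site.

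The 14 libraries held 18226457 to 30316765 reads in genes, and size factors ran from 0.705 to 1.303. Values are normalised read counts, which are a gene's reads divided by its library's size factor, and differences are log2 ratios from limma on log2(value + 1), which understates changes of low genes. The 22575 genes with a value of 10 or more in 2 or more libraries were tested, and a gene was called at a Benjamini-Hochberg adjusted p below 0.05. The sort was checked on marker genes. All 11 astrocyte markers rose in astrocytes against non-astrocytes, with summed values of 1020000 to 1507000 against 28610 to 35780. All 7 microglia markers fell (summed 1195 to 2942 against 134800 to 197700), as did all 6 endothelial (530.5 to 1066 against 28110 to 41530), all 6 mural (3850 to 7854 against 212400 to 285700), all 5 oligodendrocyte precursor (173.0 to 403.3 against 7273 to 16400) and all 5 committed oligodendrocyte precursor markers (683.4 to 1223 against 28940 to 56320). The non-astrocytes held little neuronal RNA: the 6 neuron markers summed to 3542 to 8600 there and to 103900 to 137100 in bulk tissue. All 6 mature oligodendrocyte markers also fell (summed 3613 to 5970 against 50940 to 145800). The neuroblast markers were mixed: of 5, 2 fell, 1 rose and 2 were not called in astrocytes against non-astrocytes. Among them, Dlx2 was the only marker listed at 0 in every astrocyte library, while the astrocyte mean of Sox11 was 217% of its non-astrocyte mean.

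Astrocytes were compared with non-astrocytes over both layers (6 against 4 libraries) to ask how far expression of the division genes parted with the sort. Of the 36 genes, 26 fell and 2 rose in astrocytes, while 8 did not pass the test. Over all genes tested, 66.3% were called, 36.8% lower and 29.6% higher. Of the mitosis genes, 15 of 19 fell, none rose, and the median log2 difference was -2.08 beside -0.08 over all genes. Of the replication genes, 9 of 14 fell and 2 rose, with a median of -0.75. Of the D-type cyclins, Ccnd1 and Ccnd3 fell and Ccnd2 did not pass the test. In such samples fewer dividing cells and less RNA per cell cannot be told apart.

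**Figure D1:**
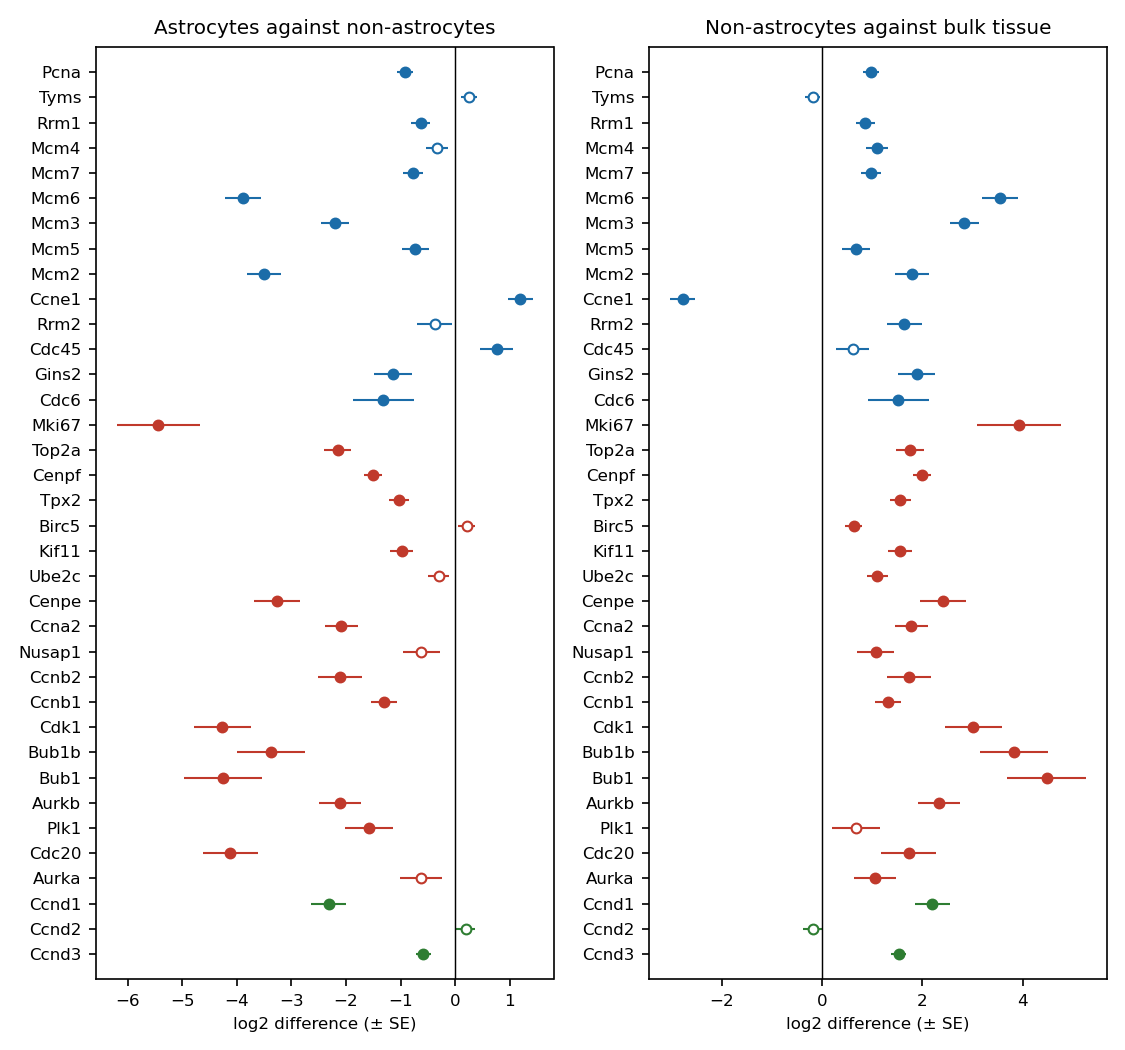
Log2 differences (± standard error) of the 36 genes between astrocytes and non-astrocytes and between non-astrocytes and bulk tissue, with replication genes in blue, mitosis genes in red and D-type cyclins in green; filled points were called. Most points lie left of 0 in the first panel and right of 0 in the second, with Ccne1 on the opposite side in both.

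Among the mitosis genes, Mki67, which encodes the proliferation antigen Ki-67 that coats mitotic chromosomes, showed the largest difference. In the order of the library numbers, and with deep before upper layers here and below, its values were 4.72, 70.9 and 118 in deep and 15.3, 30.5 and 175 in upper layer astrocytes, 1336 and 2557 in deep and 1241 and 2259 in upper layer non-astrocytes, and 139 and 141 in deep and 102 and 87.1 in upper layer bulk tissue. Every non-astrocyte library lay above every other library, and the difference between astrocytes and non-astrocytes was -5.44 on the log2 scale (SE 0.77, limma adjusted p = 2.51e-05). Top2a, topoisomerase II alpha, which untangles the copied chromosomes, read 163, 135 and 222 in deep and 119, 98.1 and 194 in upper layer astrocytes against 494, 1000, 467 and 863 in the non-astrocytes, and 216, 164, 219 and 195 in bulk tissue. Its non-astrocyte libraries again lay above all others (log2 -2.15, SE 0.25, adjusted p = 2.08e-06). Its exons overlap a small annotated gene, Gm23451, so a few reads could be shared.

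Cenpf, a kinetochore protein, read 215, 311 and 192 in deep and 189, 183 and 188 in upper layer astrocytes, 586, 758, 532 and 539 in non-astrocytes and 192, 140, 135 and 140 in bulk tissue. It fell in astrocytes without overlap (log2 -1.51, SE 0.16, adjusted p = 8.15e-07). Tpx2, a spindle assembly factor that activates AURKA, read 145, 183 and 180 in deep and 156, 118 and 146 in upper layer astrocytes against 234, 371, 269 and 410 in non-astrocytes and 102, 83.2, 130 and 111 in bulk tissue. The difference was smaller than for Mki67 but the groups did not overlap (log2 -1.03, SE 0.19, adjusted p = 1.92e-04). Birc5, which encodes survivin, a subunit of the chromosomal passenger complex, differed from this pattern: it read 262, 221 and 176 in deep and 244, 209 and 192 in upper layer astrocytes, 178, 184, 187 and 193 in non-astrocytes and 114, 112, 125 and 127 in bulk tissue. Its astrocyte and non-astrocyte libraries overlapped (log2 0.21, adjusted p = 0.236).

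The other mitosis genes fell by amounts that differed widely. Cdk1 (log2 -4.27), Bub1 (-4.26), Cdc20, an activator of the anaphase-promoting complex (-4.12), Bub1b (-3.38) and Cenpe (-3.26) fell furthest after Mki67. These genes were low in astrocytes, with means of 8.29 ± 7.59 (SD, n = 6) for Cdk1, 7.38 ± 8.73 for Bub1 and 4.45 ± 3.68 for Cdc20. Aurkb and Ccnb2 (-2.11 each), Ccna2 (-2.08), Plk1 (-1.58), Ccnb1 (-1.30) and Kif11 (-0.98) fell less. Aurka (-0.62), Nusap1 (-0.62) and Ube2c (-0.29) did not pass the test. In 15 of the 19 genes every non-astrocyte library lay above every astrocyte library. How often this order occurred over all genes tested, of which 66.3% were called in this comparison, was not counted. Exons of Cdc20, Ccna2, Plk1, Nusap1 and Ube2c overlap those of a gene on the other strand, whose reads may be included.

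The subunits of the helicase fell by different amounts. Mcm6 fell by 3.89 (SE 0.33, adjusted p = 5.45e-08), and Mcm2 (log2 -3.50) and Mcm3 (-2.20) also fell strongly, whereas Mcm7 (-0.77) and Mcm5 (-0.73) fell less and Mcm4 did not pass the test (log2 -0.33, adjusted p = 0.161). The call for Mcm5 rested on both second non-astrocyte libraries: its adjusted p was 0.136 without the deep and 0.119 without the upper layer one. As a share of the non-astrocyte mean, the astrocyte mean was 6.82% for Mcm6, 8.31% for Mcm2, 21.8% for Mcm3, 57.4% for Mcm7, 57.9% for Mcm5 and 76.7% for Mcm4. Mcm4 read 215, 305 and 243 in deep and 237, 270 and 308 in upper layer astrocytes, 262, 416, 230 and 462 in non-astrocytes and 157, 162, 152 and 143 in bulk tissue, so the sorted fractions overlapped while both lay above bulk tissue. Mcm7 read 188, 165 and 214 in deep and 245, 179 and 211 in upper layer astrocytes, 303, 450, 253 and 389 in non-astrocytes and 142, 189, 171 and 189 in bulk tissue. Its non-astrocyte libraries were above all others, but its exons overlap Ap4m1, Cops6, Mir25 and Mir93, so reads of these may be included.

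Pcna, the polymerase clamp, read 499, 650 and 517 in deep and 607, 523 and 647 in upper layer astrocytes, 1074, 1387, 757 and 1185 in non-astrocytes and 563.9, 503, 515 and 602 in bulk tissue. It fell in astrocytes by 0.91 (SE 0.15, adjusted p = 6.38e-05), and astrocytes and bulk tissue overlapped. Rrm1 fell by 0.63 (adjusted p = 0.00476), with 299, 326 and 330 in deep and 308, 353 and 436 in upper layer astrocytes against 427, 657, 409 and 662 in non-astrocytes, where the highest astrocyte library reached above the lowest non-astrocyte ones. Bulk tissue read 269, 307, 265 and 320 for Rrm1. Tyms showed no such order: it read 997, 739 and 889 in deep and 745, 592 and 551 in upper layer astrocytes, 668, 505, 762 and 565 in non-astrocytes and 696, 651, 756 and 720 in bulk tissue (log2 0.25, adjusted p = 0.128). Rrm2 (-0.38) did not pass either, and Gins2 and Cdc6 fell (log2 -1.14 and -1.32). The exons of Gins2 overlap Gse1 on the other strand. Leaving out any single library other than the first deep layer astrocyte or first deep layer non-astrocyte library ended the call for Cdc6 (adjusted p 0.051 to 0.287), and leaving out the second upper layer non-astrocyte library ended that for Gins2 (0.05).

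Ccne1 and Cdc45 went against their group. Ccne1 encodes cyclin E1, which partners CDK2 at the start of S phase. It read 49.6, 48.2 and 53.9 in deep and 49.7, 71.9 and 38.6 in upper layer astrocytes, 17.0, 26.4, 23.0 and 21.5 in non-astrocytes, and 167, 141, 148 and 166 in bulk tissue. The 3 fractions did not overlap: bulk tissue was highest and non-astrocytes lowest, and Ccne1 rose by 1.20 in astrocytes against non-astrocytes (SE 0.23, adjusted p = 2.61e-04). Cdc45, a subunit of the active helicase, read 88.5, 44.0 and 94.1 in deep and 92.6, 74.1 and 92.6 in upper layer astrocytes, 28.3, 76.4, 34.6 and 58.3 in non-astrocytes, and 32.9, 29.6, 25.8 and 31.1 in bulk tissue. It rose by 0.76 (adjusted p = 0.0388), with overlapping libraries. Its call was lost without any of 6 single libraries (adjusted p 0.0679 to 0.244), with values scaled to library totals (log2 0.58, adjusted p = 0.136), with no filter on low values (0.0508), with only the compared groups fitted (0.0561), with the replicate number as a block over all groups (0.109) and without the third astrocyte library of each layer (0.128). The block and the fit without the third libraries gave the same log2 difference (0.641), so they are not separate checks. The exons of Cdc45 overlap Ufd1.

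**Figure D2:**
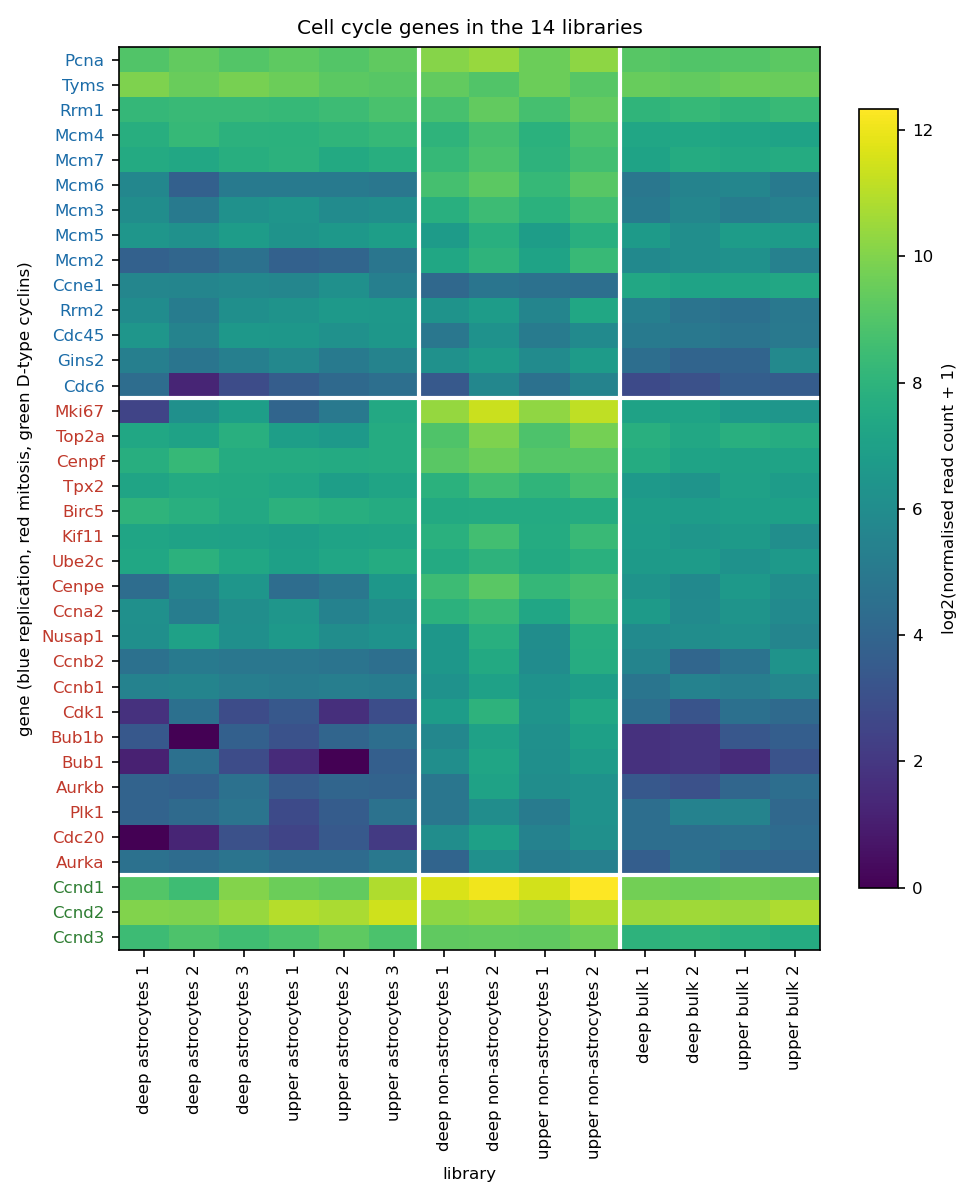
Expression of the 36 genes in each of the 14 libraries, as log2(value + 1), with genes ordered by role and libraries by fraction and layer. The 4 non-astrocyte libraries stand out for most mitosis genes, the second of each layer more than the first, while Ccne1 is highest in bulk tissue.

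The D-type cyclin genes lie on chromosome 7 (Ccnd1, 144929931 to 144939925, minus strand), chromosome 6 (Ccnd2, 127125162 to 127152193, minus strand) and chromosome 17 (Ccnd3, 47505051 to 47599691, plus strand; GRCm38). They were expressed in every fraction, and at higher levels per length of exon than most of the other genes. Per kilobase of annotated exon, the mean value in astrocytes was 184 for Ccnd1, 176 for Ccnd2 and 52.2 for Ccnd3, beside 239 for Pcna, 17.2 for Top2a, 6.88 for Mki67 and 1.68 for Cdk1. In non-astrocytes it was 822 for Ccnd1, 146 for Ccnd2 and 77.1 for Ccnd3. Ccnd1 was thus the D-type cyclin with the highest level per kilobase in non-astrocytes, while Ccnd1 and Ccnd2 were close together in astrocytes, where their spread over libraries was wide.

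Ccnd1 (cyclin D1) read 522, 360 and 1048 in deep and 747, 669 and 1860 in upper layer astrocytes, 3136, 4339, 2854 and 5149 in non-astrocytes, and 825, 783, 864 and 800 in bulk tissue. The non-astrocytes lay above all other libraries, and Ccnd1 fell by 2.32 in astrocytes (SE 0.32, adjusted p = 1.78e-05). Ccnd3 (cyclin D3) read 354, 477 and 376 in deep and 457, 619 and 463 in upper layer astrocytes, 628, 670, 628 and 778 in non-astrocytes, and 254, 263, 229 and 194 in bulk tissue. The 3 fractions did not overlap, and Ccnd3 fell by 0.58 in astrocytes (SE 0.14, adjusted p = 0.0021). Ccnd2 (cyclin D2) read 1026, 977 and 1362 in deep and 2016, 1734 and 2822 in upper layer astrocytes, 1212, 1328, 1082 and 1872 in non-astrocytes, and 1432, 1522, 1408 and 1778 in bulk tissue. Its fractions overlapped throughout (log2 0.20, SE 0.17, adjusted p = 0.322). The exons of Ccnd1 overlap LTO1, those of Ccnd2 overlap 9330179D12Rik and Gm43126, and those of Ccnd3 overlap Bysl, each on the other strand, and no source used here states whether reads were counted by strand.

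**Figure D3:**
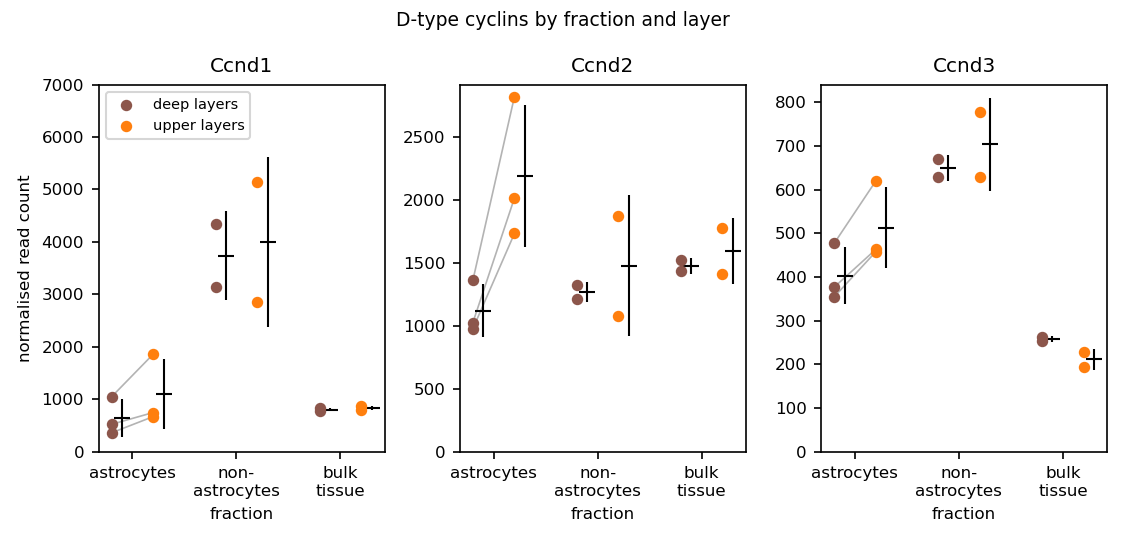
Normalised read counts of Ccnd1, Ccnd2 and Ccnd3 in each library by fraction and layer, with group means and SD as black marks and lines joining same-numbered deep and upper layer astrocyte libraries. Ccnd1 is highest in non-astrocytes, and Ccnd2 is higher in all 3 upper than in all 3 deep layer astrocyte libraries.

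How much of the division genes' signal remained in the astrocytes was set beside the markers of other cells. Summed over the genes of a role, the astrocyte level was 25.3% of the non-astrocyte level for the mitosis genes, 59.2% for the replication genes and 50.4% for the D-type cyclins. The same share was 2.45% for oligodendrocyte precursor markers, 1.94% for committed precursors, 1.15% for microglia, 2.30% for endothelial cells, 2.16% for mural cells, 1.02% for blood and 20.0% for neuroblasts. Per gene, shares ran from 3.74% (Mki67) to 117% (Birc5) in mitosis and from 6.82% (Mcm6) to 236.5% (Ccne1) in replication. Single markers also varied more than their sums. The highest share of a single marker was 3.74% for oligodendrocyte precursors, 16.45% for committed precursors, 2.14% for microglia and 8.24% for endothelial cells. It was 31.8% for mural cells, 25.4% for blood and 217% for neuroblasts. The part of these cells' RNA in the astrocyte values was not tested.

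**Figure D4:**
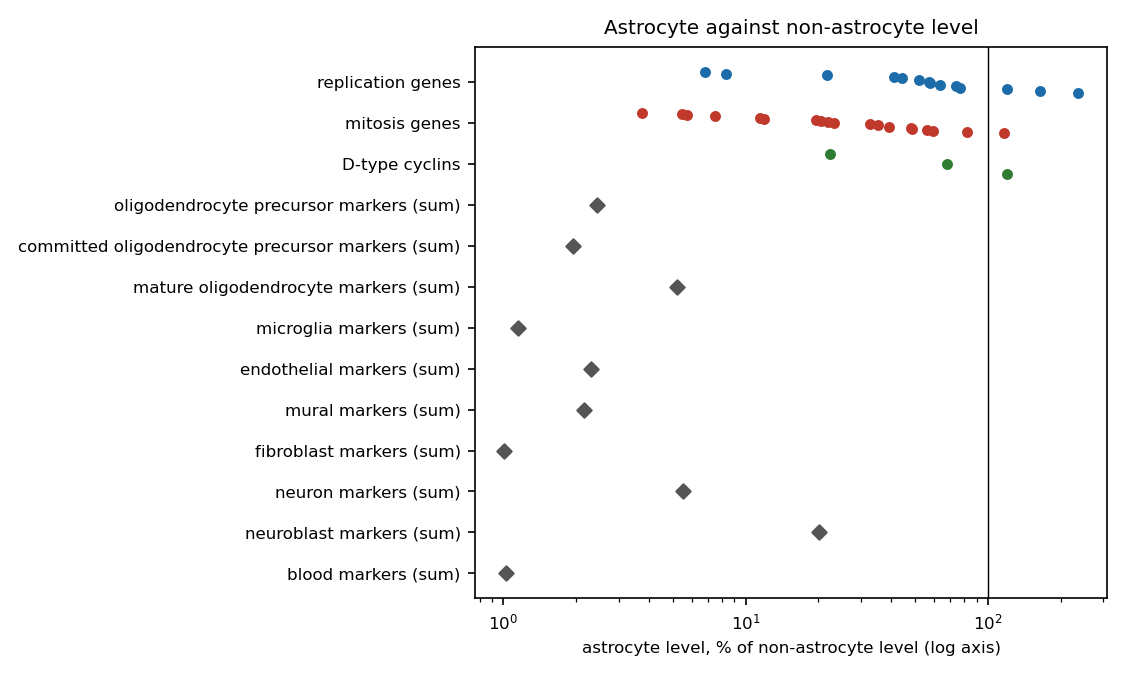
Astrocyte mean as a percentage of the non-astrocyte mean, on a log axis, for each replication, mitosis and D-type cyclin gene (points) and for the summed markers of 10 other cell types (diamonds); the vertical line marks equal levels. Only the lowest division genes, such as Mki67 at 3.74%, lie among the marker sums, most of which are under 6%, with neuroblast markers at 20.0%. Single markers, which are not drawn, reached higher shares, such as 31.8% for Pdgfrb (mural) and 217% for Sox11 (neuroblast).

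Division genes were not even among libraries of a group. The third astrocyte library of each layer had the highest Mki67 (118 deep, 175 upper) and Ccnd1 (1048 and 1860) of its group. Not all division genes followed. The mitosis sum was 1396, 1687 and 1578 in deep layer astrocytes, highest in the second library, and 1299, 1207 and 1638 in upper layer ones. The replication sum was 2676, 2477 and 2698 in deep and 2638, 2417 and 2689 in upper layer astrocytes. In both layers the third library also had the highest marker sums of mural cells (5389 deep, 7854 upper), mature oligodendrocytes (5970 and 4854), endothelial cells (897.7 and 1066), oligodendrocyte precursors (340.5 and 403.3) and fibroblasts (138.5 and 153.2) in its group. The sums of committed precursors (789.9 and 1223), microglia (1616 and 2942) and blood (119.5 and 205.0) were highest there in the upper layer only, and that of neurons (295.0 and 348.2) in neither. The part of these cell types in the values of the third libraries was not tested. Without these 2 libraries, the mitosis genes still had 15 called lower in astrocytes than in non-astrocytes, and the replication genes had 8 lower and 1 higher. Over all genes tested, 63.8% were called in either direction in that fit. Among the non-astrocytes, the second library was above the first in both layers for 34 of the 36 genes, including all 19 mitosis genes and all 3 D-type cyclins, while 41.9% of all genes tested did so. The median ratio of second to first over the 36 genes was 1.59 in deep and 1.71 in upper layers, beside 1.02 and 1.11 over all genes. The marker sums of committed precursors (56320 against 38100 deep, 49030 against 28940 upper), fibroblasts (11820 against 8413, 13700 against 7297), neuroblasts (1055 against 886.1, 985.5 against 835.3), oligodendrocyte precursors (16400 against 9237, 13670 against 7273), microglia (191600 against 160400, 197700 against 134800), endothelial cells (41530 against 28110, 38460 against 28470) and blood (16620 against 6620, 16040 against 4157) were also higher in the second libraries. Those of mature oligodendrocytes (108400 against 145800, 50940 against 58570) and neurons (3542 against 5693, 6861 against 8600) were lower there, and those of mural cells (235700 against 285700, 258600 against 212400) and astrocytes (28610 against 35780, 35750 against 28810) were lower in deep and higher in upper layers. The part of these cell types in the difference was not tested.

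Bulk tissue gave the level before dissociation and sorting. Against it, non-astrocytes were higher for 31 of the 36 genes and lower for 1, and 4 did not pass the test. Over all genes tested, 61.6% were called, 30.5% higher and 31.1% lower. Of the mitosis genes, 18 of 19 rose (all but Plk1, log2 0.67), with a median of 1.74 beside -0.04 over all genes. The largest differences were those of Bub1 (4.48), Mki67 (3.92), Bub1b (3.82) and Mcm6 (3.55). Of the replication genes, 11 of 14 rose, with a median of 1.04, Tyms (-0.19) and Cdc45 (0.61) did not pass, and Ccne1 fell by 2.78 (SE 0.25, adjusted p = 1.39e-07). Ccnd1 (2.20) and Ccnd3 (1.52) rose, and Ccnd2 (-0.19) did not pass. Calls for Aurka, Nusap1, Cdc20, Mcm5 and Cdc6 in this comparison were lost without 1 of several single libraries, among them the second non-astrocyte library of either layer, with adjusted p then from 0.0522 to 0.244. Beside these genes, all 7 microglia, all 6 mural, all 6 endothelial and all 5 committed precursor markers also rose in non-astrocytes against bulk tissue, with sums 23.4, 27.9, 9.04 and 6.68 times as high, and all 6 neuron markers fell. The oligodendrocyte precursor sum was 4.26 times as high, though its marker Pcdh15 was 0.951 times as high. The other sums were 10.9 (blood), 8.4 (fibroblasts), 1.03 (mature oligodendrocytes), 0.237 (neuroblasts) and 0.142 times as high (astrocytes). Scaling by library totals moved the median of all genes from -0.04 to 0.32 and the share of calls that were higher from 49.5% to 64.1%, and 18 of the 19 mitosis genes were called higher under that scaling too.

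Astrocytes and bulk tissue differed for fewer of the division genes. Of the 36, 10 rose and 4 fell in astrocytes, 38.9% beside the 64.8% called over all genes tested (28.8% higher, 36.1% lower). Birc5 (log2 0.85), Ube2c (0.81), Kif11 (0.58), Tpx2 (0.53) and Cenpf (0.48) rose among the mitosis genes, Cdc45 (1.37), Rrm2 (1.27), Mcm4 (0.76) and Mcm3 (0.63) among the replication genes, and Ccnd3 (0.94, adjusted p = 2.9e-05) among the cyclins. Cdk1 (-1.25), Cdc20 (-2.39), Mcm2 (-1.71) and Ccne1 (-1.59) fell. This comparison shares its astrocyte libraries with that against non-astrocytes and its bulk tissue libraries with the one before.

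Cdk1 read 2.36, 22.7 and 6.34 in deep and 9.55, 2.18 and 6.61 in upper layer astrocytes and 21.2, 8.32, 22.1 and 18.03 in bulk tissue, with 111, 249, 82.9 and 164 in non-astrocytes. Astrocytes and bulk tissue overlapped, and the call (limma adjusted p = 0.047) was lost under edgeR (0.0879) and DESeq2 (0.0513). Cdc20 read 0, 1.42 and 7.40 in deep and 4.77, 9.81 and 3.31 in upper layer astrocytes, 21.2, 21.3, 23.0 and 19.0 in bulk tissue and 65.6, 127, 43.8 and 72.7 in non-astrocytes, without overlap between fractions (adjusted p = 6.59e-04 against bulk tissue). Mcm2 read 12.98, 15.6 and 23.3 in deep and 13.4, 15.3 and 27.6 in upper layer astrocytes, 57.6, 67.4, 74.7 and 41.1 in bulk tissue and 161, 256, 139 and 311 in non-astrocytes, also without overlap (adjusted p = 1.82e-04). Cdc20, Mcm2 and Ccnd3 thus had a separate level in each fraction, as Ccne1 did, in differing order. Without the third astrocyte library of each layer, 7 genes were higher and 8 lower in astrocytes than in bulk tissue, beside 62.1% of all genes tested called in either direction. Mki67 (log2 -2.44), Cenpe (-1.41), Plk1 (-1.26), Top2a (-0.64) and Ccnd1 (-0.56) were then called lower, while Cdk1, Kif11, Tpx2 and Mcm3 were no longer called (adjusted p 0.0807, 0.0609, 0.0708 and 0.133). Single libraries also ended the calls for Cdk1, Kif11, Cenpf, Tpx2 and Mcm3, each among them at least 1 bulk tissue library, with adjusted p from 0.0521 to 0.191.

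Upper and deep layers were compared within each fraction, which is the contrast the dissection was made for. None of the 36 genes was called by limma in astrocytes, non-astrocytes or bulk tissue. Over all genes tested, 0.0797%, 0.00443% and 0.456% were called in these fractions. With the replicate number as a block within fraction, 188 genes (0.833%) were called in astrocytes in place of 18, 33 (0.146%) in non-astrocytes in place of 1 and 261 (1.16%) in bulk tissue in place of 103. Of the 36 genes, 2 (5.56%) were then called in astrocytes, both of them D-type cyclins, and 0 in the other fractions. Without the block, 2 of the 36 genes (Ccnd2 and Tyms) had an unadjusted p below 0.05 in astrocytes and 0 in the other fractions, beside 10.3%, 3.86% and 7.26% of all genes tested. edgeR also called 0 of the 36 in each, beside 0.0753%, 0.031% and 0.753% of all genes in astrocytes, non-astrocytes and bulk tissue. DESeq2 called 1, Ccnd2 in astrocytes, beside 0.781%, 0.846% and 2.06% of the genes to which it gave an adjusted p.

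For the D-type cyclins the layer values are given in full. Ccnd2 was higher in all 3 upper (1734 to 2822) than in all 3 deep layer astrocyte libraries (977 to 1362). This order was also seen in 1 of the 14 replication genes and in 8.70% of all genes tested. The log2 difference was 0.95 (SE 0.22, unadjusted p = 6.04e-04, limma adjusted p = 0.151). DESeq2, which called 142 of all genes here where limma called 18 and edgeR 17, gave an adjusted p of 0.0145 and edgeR of 0.157. Upper and deep layer astrocyte libraries of the same number deviated together (r = 0.203, 0.149 and 0.171 over genes), and those of different numbers gave -0.125 to -0.066. Deviations from a group mean add up to 0 within the group, so the values for different numbers are not separate evidence on pairing. However, the third upper layer astrocyte and second upper layer non-astrocyte libraries, which differ in number, gave 0.185. Pairing by number is thus an assumption of the block. With the replicate number as a block within fraction, the limma adjusted p was 0.0214 for Ccnd2 and 0.0313 for Ccnd1. Within pairs 1, 2 and 3, the ratio of upper to deep was 1.97, 1.77 and 2.07 for Ccnd2, 1.43, 1.86 and 1.78 for Ccnd1, and 1.29, 1.30 and 1.23 for Ccnd3. All 3 cyclins were thus higher in the upper layer in every pair, as were 3 of the 14 replication genes (21.4%), 0 of the 19 mitosis genes and 19.9% of all genes tested. Without the block Ccnd1 had a log2 difference of 0.75 (adjusted p = 0.529) and Ccnd3 one of 0.35 (adjusted p = 0.51, or 0.176 with the block).

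In non-astrocytes the upper against deep difference of Ccnd2 was 0.17 (SE 0.27) and in bulk tissue 0.10 (SE 0.27). Whether the astrocyte difference was larger was tested as an interaction: it exceeded that of bulk tissue by 0.85 (SE 0.35, adjusted p = 0.537) and that of non-astrocytes by 0.78 (SE 0.35, adjusted p = 0.799), so neither passed. None of the 36 genes passed in either interaction, in which 0.137% and 0.00443% of all genes were called. With the block within fraction these shares were 0.496% and 0.0177%, and again none of the 36 genes passed. Without it, 3 and 2 of the 36 genes had an unadjusted p below 0.05, beside 8.03% and 5.98% of all genes, and edgeR and DESeq2 called 0 of the 36 in each. Over all genes edgeR called 0.221% and 0.00443%, and DESeq2 1.13% and 0.272% of those with an adjusted p.

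**Figure D5:**
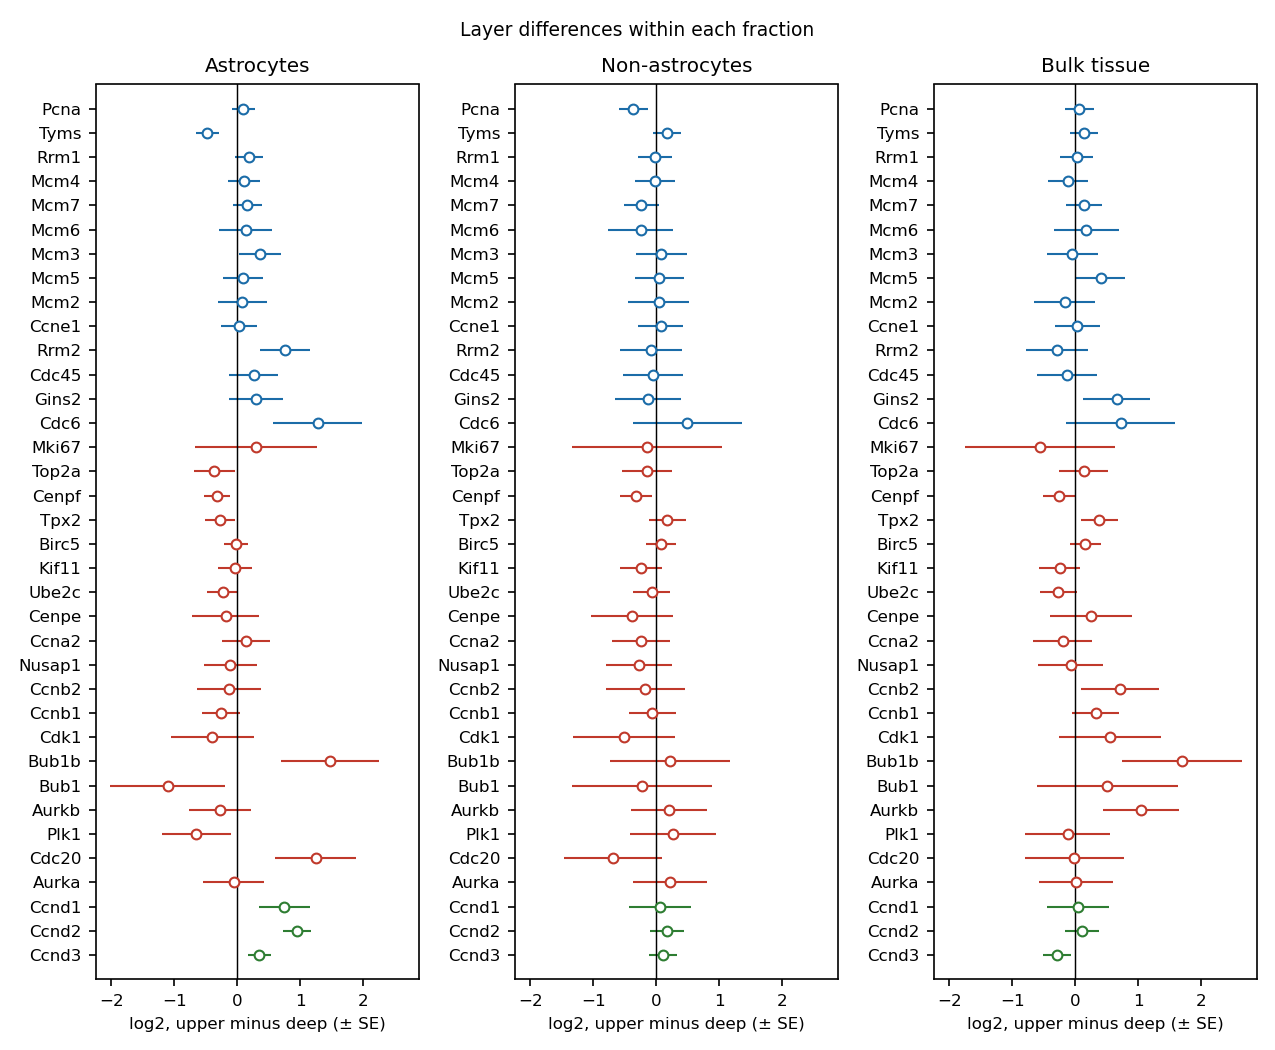
Upper minus deep layer differences (log2, ± standard error) of the 36 genes in astrocytes, non-astrocytes and bulk tissue, coloured by role as above, with all points open because none was called. The 3 D-type cyclins lie right of 0 in astrocytes, 15 of 19 mitosis genes lie left of 0 there, and no role keeps to 1 side in all fractions.

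The layer differences of the mitosis genes were small beside their errors. In astrocytes 4 of 19 were above 0 and 15 below, with a median of -0.18, in non-astrocytes 6 were above and 13 below, and in bulk tissue 11 were above and 8 below. Replication genes were above 0 in 13 of 14 cases in astrocytes with a median of 0.15, the exception being Tyms (-0.48, unadjusted p = 0.0186, adjusted p = 0.421), which was higher in deep layers. For low genes such as Bub1 (-1.10, SE 0.91) and Bub1b (1.48, SE 0.78) the errors were too wide to show a difference of this size.

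The partners of the D-type cyclins were read from the same table. Cdk4 (log2 -1.12), Cdk6 (-2.39) and Cdk2 (-1.28) fell in astrocytes against non-astrocytes, as did Rbl1 (-2.41), a pocket protein that works with E2F factors in dividing cells. Rb1, the retinoblastoma gene, rose instead by 2.32 (SE 0.14, adjusted p = 7.48e-10). It read 7511, 12340 and 7756 in deep and 9173, 9914 and 10900 in upper layer astrocytes against 2012, 1836, 1820 and 1905 in non-astrocytes and 1460, 1347, 1783 and 1980 in bulk tissue, so every astrocyte library lay far above the rest. The exons of Rb1 overlap Lpar6 and Rcbtb2 on the other strand, so reads of these may be included. Those of Cdk4, Cdk6, Cdk2 and Rbl2 also overlap genes on the other strand. Rbl2, the pocket protein linked to resting cells, did not pass (0.11, adjusted p = 0.37). Of these 6 genes, 4 fell and 1 rose in astrocytes against non-astrocytes, and 5 rose in non-astrocytes against bulk tissue (all but Rb1). The shares over all genes tested were 36.8% lower and 29.6% higher in the first comparison and 30.5% higher in the second.

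The Cdk inhibitors did not move together. Cdkn1b, which encodes p27 and restrains cyclin E and CDK2, rose by 0.88 in astrocytes against non-astrocytes (adjusted p = 8.26e-04), with 1296 to 2877 in the 6 astrocyte and 849 to 1008 in the 4 non-astrocyte libraries. Cdkn1c, which encodes p57, fell by 6.34 (6.54 to 19.8 in astrocytes, 961 to 1241 in non-astrocytes), and Cdkn2b, which encodes the CDK4 and CDK6 inhibitor p15, fell by 6.34 as well (0 to 8.46 against 205 to 352). Cdkn1a (-0.23), Cdkn2c (-0.23) and Cdkn2d (-0.27) did not pass. Cdkn2a was under the filter, with at most 3.24 in any library. Between layers, Cdkn2c read 156, 184 and 125 in upper and 55.5, 72.3 and 58.2 in deep layer astrocytes, without overlap (log2 1.30, SE 0.29, adjusted p = 0.143).

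Other genes of the same processes were counted as a wider setting. Of 30 other mitosis genes, 23 fell and 2 rose in astrocytes against non-astrocytes, and 21 rose and none fell in non-astrocytes against bulk tissue. The shares over all genes tested were 36.8% lower and 29.6% higher in the first comparison, and 30.5% higher and 31.1% lower in the second. Cenpa, the centromere histone, fell by 2.46 and Ckap2l, a spindle protein, by 2.63, while Racgap1, a regulator of cytokinesis, rose by 1.29 (adjusted p = 1.47e-07). The other gene that rose was Cdca8. Of 29 other replication genes tested, 9 fell and 6 rose in astrocytes against non-astrocytes, both less often than over all genes. Lig1, the ligase that joins Okazaki fragments, fell by 2.70, whereas Orc6, a subunit of the origin recognition complex, and Cdc7, the kinase that fires origins, each rose by 1.58. Both lists thus held genes in each direction, with a median of -1.50 for mitosis and -0.25 for replication beside -0.08 over all genes.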

How the data were processed

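RNA-seq libraries were made from 14 samples of mouse cortex in 6 groups with NuGEN RNA-Seq V2 amplification and NuGEN Ultralow kits and sequenced single-end on a HiSeq4000, several libraries to a lane, per the labels' protocols. CASAVA, TopHat2 2.0.11, HTSeq 0.6.1p1 and DESeq2 were used with GRCm38, per the submitters' processing notes. No source used here states whether counting used strand. The values the authors deposited are a signal: a gene's reads over the size factor of its library. Dividing by what 1 read is worth gave whole numbers for 100% of values (relative tolerance 1e-06). All value columns were mapped to samples by name. The characteristics field calls the upper layer astrocytes and non-astrocytes bulk tissue, against their titles; titles were followed.

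In R 4.3.3, limma 3.58.1 (trend, robust) was fitted to log2(value + 1) with 6 group means over all libraries (8 residual degrees of freedom). Genes reaching 10 in at least 2 libraries were kept, fraction comparisons weighed both layers equally, and p-values were adjusted by Benjamini-Hochberg within each comparison. edgeR 4.0.16 and DESeq2 1.42.0 on recovered reads, other filters, pseudocounts, scaling, libraries left out and the replicate block were alternatives. The fits were tested on simulated data. Symbols and exons came from GENCODE M21 (32007 genes matched by identifier), and promoters from RefSeq.

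Values in every library were given for the D-type cyclins, the 5 mitosis and 5 replication genes with the highest means, and genes called against their group. Of the wider lists, the Cdk inhibitors and cyclin partners were named in full. For the others the plan was up to 3 genes with the smallest p in astrocytes against non-astrocytes. Further genes of these lists, such as Cdca8, E2f7, Cdc25b and Wee1, were named outside this rule. The genes and lists were chosen with earlier results of these data known. Replicate numbers were checked by correlating deviations from group means over genes: same-numbered upper and deep libraries gave 0.203, 0.149 and 0.171 in astrocytes, 0.436 in non-astrocytes and 0.094 in bulk tissue, and same-numbered libraries of different fractions gave -0.014 to 0.187. Differently numbered libraries of different fractions gave -0.187 to 0.185. Because deviations add up to 0 within a group, same-numbered and differently numbered values are not separate evidence.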

Additional observations from a re-analysis of the deposited data

How the results depend on the processing

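Of 74 calls for the 36 genes in the fraction comparisons, edgeR lost 1, DESeq2 1, a pseudocount of 5 1, a pseudocount of 0.5 2, library totals 2, no filter 6, fitting only the compared groups 6 and the replicate block over all groups 6, and none reversed. Leaving out 1 library lost 62 of 676. Without the third astrocyte library of each layer, an alternative chosen after the data were seen because Mki67 and Ccnd1 were highest there, 6 of 42 were lost. The block over all groups ended the calls for Cdc6 and Cdc45 (astrocytes against non-astrocytes, adjusted p 0.0666 and 0.109), Cdk1, Tpx2 and Mcm3 (against bulk tissue, 0.0801, 0.0521 and 0.13) and Cdc6 (non-astrocytes against bulk tissue, 0.0547). Astrocytes then had 8 genes higher and 8 lower than bulk tissue in place of 10 and 4, beside 65.4% of all genes tested called in either direction. Over all these settings, lost calls were those of Mcm5, Cdc6, Cdc45 and Gins2 (astrocytes against non-astrocytes), Cdk1, Kif11, Cenpf, Tpx2 and Mcm3 (against bulk tissue) and Cdc20, Aurka, Nusap1, Mcm5 and Cdc6 (non-astrocytes against bulk tissue). Counts of the 36 genes called with 1 library left out ran from 25 to 30 for astrocytes against non-astrocytes, 11 to 16 against bulk tissue and 27 to 33 for non-astrocytes against bulk tissue.

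For upper against deep layer astrocytes, 0 of the 36 genes were called, but 1 under DESeq2, 1 with the replicate block over all groups (Ccnd2) and 2 with the replicate block within fraction (Ccnd1, Ccnd2). These settings called 0.781%, 0.394% and 0.833% of all genes with an adjusted p, beside 0.0797% in the main fit. The block changed no layer call of the 36 genes in the other fractions and was not run within fraction for the fraction comparisons, where each block lies in a single fraction. For the 3 D-type cyclins, the genes whose layer differences were followed singly with 1 library left out, uncalled differences changed sign in 6 cases. In non-astrocytes they ran from -0.37 to 0.48 for Ccnd1 (-0.178 without the first deep library), from -0.23 to 0.56 for Ccnd2 and from -0.0468 to 0.262 for Ccnd3, each lowest without the second upper library. In bulk tissue they ran from -0.0054 (without the first upper library) to 0.106 for Ccnd1 and from -0.068 (without the second upper library) to 0.268 for Ccnd2. The cause was not tested. With 2 or 3 libraries a group and few reads for genes such as Cdk1, Cdc20, Bub1 and Cdc6, layer differences were resolved poorly.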

Other observations

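E2F and Myb factors, which turn on many division genes, moved in both directions. Of 10, 5 fell and 4 rose in astrocytes against non-astrocytes, and E2f7 did not pass (-0.07). The shares over all genes tested were 36.8% lower and 29.6% higher. E2f8, an atypical repressor of the family, fell by 3.43 (adjusted p = 7.02e-09, limma), with 35.5 to 56.3 in astrocytes and 304 to 696 in non-astrocytes. E2f2 fell by 4.26. E2f6, a repressor, rose by 1.38, and Mybl2, the Myb family member that works at promoters of mitosis genes, rose by 1.23 while most mitosis genes fell. Mybl2 read 444, 349 and 336 in deep and 243, 294 and 277 in upper layer astrocytes against 161, 121, 176 and 96.0 in non-astrocytes.

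Among 9 regulators of Cdk activity and brakes on growth, 5 fell and 1, Cdc25b, rose (1.05) in astrocytes against non-astrocytes. Calls in either direction were thus about as frequent as the 66.3% over all genes tested (36.8% lower, 29.6% higher). Btg2 and Btg1, antiproliferative genes, fell by 3.21 and 1.35, with Btg2 at 101.4 to 179.5 in astrocytes and 1107 to 1429 in non-astrocytes. Against bulk tissue Btg1 rose in both sorted fractions, by 1.81 in astrocytes and 3.16 in non-astrocytes. Cdkn2d and Wee1 were lower in both sorted fractions than in bulk tissue, by log2 -1.99 and -1.73 in astrocytes and -1.72 and -1.31 in non-astrocytes, and the 6 neuron markers fell in both as well. Their part in these values was not tested.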
